A study of Mus musculus with 12 samples.

Results

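The genes described here are the DNA replication genes of the mouse spinal cord, a list of 37 symbols covering the MCM helicase and its loading factors, the enzymes that make deoxynucleotides, primase and the replicative polymerases, the clamp loader and its partners, replication-coupled chromatin factors, and the cyclins and E2F factor of the G1/S step. The list goes by name and its rule uses no measured value, although it was drawn up with earlier results of these data known. A gene's level was the mean of the log2 signals of all probesets that name that gene alone. The table held 33 of the 37, among 15830 genes in all. Pcna, Rrm2, Rfc2 and Lig1 were not analysed here. The 33 genes were read by 483 probesets, from 2 to 51 per gene.

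The samples were 12 spinal cords in 4 groups of 3, each hybridised to 1 Affymetrix mouse exon array. EphA4 knockout mice, which lack this axon guidance receptor in every cell from conception, and wild-type littermates, both on a C57/BL6 background, received either a hemisection of the left lumbar cord or, as sham controls, the laminectomy alone. At day 4 after surgery, 6 mm of cord around the lesion, or the matching stretch in sham mice, was taken from the left side. The sources differ on that side: the sample notes call it uninjured and the methods call it injured. By the labels each group held 2 males and 1 female. Labelled ages were 10.0 weeks except for 12.0 and 9.0 weeks in the first and second sham EphA4 knockout mice and 14.5 weeks in the second injured wild-type mouse. Precision is bounded throughout by the 3 arrays in each group.

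DNA replication starts where CDC6 and CDT1 load the ring of MCM2 to MCM7 onto origins in G1, and the ring becomes an active helicase in S phase once GINS and its partners join it. DNA polymerase alpha and its primase lay down primers, polymerases epsilon and delta extend them behind a sliding clamp, and deoxynucleotides are supplied by ribonucleotide reductase, thymidylate synthase and thymidine kinase. Many of these genes are switched on at the G1/S boundary by E2F factors, which RB-family proteins hold back in resting cells. In the uninjured adult cord few cells divide, whereas after an injury microglia, infiltrating and vascular cells, astrocytes and ependymal cells are known to enter the cell cycle.

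Promoter sequence was examined because E2F factors are known to act through short motifs close to the start of such genes. RefSeq promoter windows of build GRCm38.p6, from 250 bases before to 50 bases after a start, were matched by symbol for 27 of the 33 genes (30 windows). Gins1, Gins2, Mcm4, Pole, Prim2 and Ccne2 had no entry. The 6 forms searched on both strands were TTTCCCGC, TTTGGCGC, TTTCGCGC, TTTGCCGC, TTCCCGCC and TTGGCGGG, several of which overlap one another where they fall together. At least 1 of them was present in 16 of the 27 genes (59.3%), against 5.34% of 27025 genes with a window and 6.79% of 17492 protein-coding genes. CCAAT, the box bound by NF-Y, was present in 14 of the 27 (51.9%) against 41.1% of all genes.

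The 190 bases upstream of the start are shown for 6 genes to which the results below return, with every match to an E2F form in capitals, each on the gene's own strand. Mcm6 (chr1:128359706-128359895, minus strand), Mcm5 (chr8:75109319-75109508, plus strand), Rrm1 (chr7:102441505-102441694, plus strand) and the first of the Uhrf1 starts (chr17:56303147-56303336, plus strand) belong to genes that rose after injury and hold a match. Pola1 (chrX:93632156-93632345, minus strand) holds a match in a gene that was not called, and Tk1 (chr11:117826015-117826204, minus strand) holds none in one of the genes with the greatest rise.
Mcm6: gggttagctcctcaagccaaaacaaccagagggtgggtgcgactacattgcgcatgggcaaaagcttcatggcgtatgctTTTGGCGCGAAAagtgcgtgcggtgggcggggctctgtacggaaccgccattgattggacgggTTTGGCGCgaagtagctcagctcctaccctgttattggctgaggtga
Mcm5: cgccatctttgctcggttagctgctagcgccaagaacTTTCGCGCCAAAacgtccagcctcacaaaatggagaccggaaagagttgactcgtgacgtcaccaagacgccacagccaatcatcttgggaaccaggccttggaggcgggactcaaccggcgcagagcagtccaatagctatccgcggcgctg
Rrm1: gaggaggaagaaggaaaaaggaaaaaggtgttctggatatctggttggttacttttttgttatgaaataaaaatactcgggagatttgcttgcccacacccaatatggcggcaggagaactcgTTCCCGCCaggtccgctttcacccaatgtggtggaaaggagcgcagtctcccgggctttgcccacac
Uhrf1: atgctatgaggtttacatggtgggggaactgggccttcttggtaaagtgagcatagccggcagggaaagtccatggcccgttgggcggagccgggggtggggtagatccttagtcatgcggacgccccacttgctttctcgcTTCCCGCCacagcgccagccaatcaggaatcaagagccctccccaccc
Pola1: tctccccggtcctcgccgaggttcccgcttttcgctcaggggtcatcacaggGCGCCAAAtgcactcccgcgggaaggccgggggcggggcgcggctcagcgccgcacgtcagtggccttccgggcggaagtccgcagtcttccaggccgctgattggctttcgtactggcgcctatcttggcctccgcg
Tk1: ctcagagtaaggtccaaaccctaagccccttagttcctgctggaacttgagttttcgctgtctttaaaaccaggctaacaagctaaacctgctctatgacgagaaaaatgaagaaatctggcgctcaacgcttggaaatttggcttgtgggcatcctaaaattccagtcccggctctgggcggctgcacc
In Mcm6 the matches lay at bases -110 to -103 and -47 to -40 with another, overlapping match on the opposite strand, counting back from the start. In Mcm5 a pair of overlapping matches began at base -153. Matches are a description of these letters and were not tested for binding.

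Before the comparisons, the labels were checked. Epha4 read 6.52 to 6.81 in sham wild-type and 5.15 to 5.19 in sham EphA4 knockout arrays, and 5.87 to 6.24 against 4.82 to 5.10 after injury, so the genotypes did not overlap under either treatment. The Y-linked gene Eif2s3y read 3.25 in the second sham EphA4 knockout array, labelled male, within the range of the arrays labelled female (3.21 to 3.49) and away from the other arrays labelled male (7.21 to 8.15). That array fits its genotype label and not its sex label, and counts without it are given below. Spinal cord markers were present in every array, with mean log2 levels of 9.17 to 9.74 for 10 neuronal genes and 10.26 to 10.60 for 6 oligodendrocyte genes. RNA was extracted in 4 batches, of which batches 1 and 2 held all 4 groups, while batch 3 was the first sham EphA4 knockout sample alone and batch 4 the third injured EphA4 knockout sample alone. Batches 1 and 2 each held a single EphA4 knockout array per treatment, so genotype comparisons within a batch rest on individual mice.

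Hemisection was followed by a rise of most of the replication genes in both genotypes. In the mean injury effect, which averages injured minus sham over both genotypes, 25 of the 33 genes were higher, 0 were lower and 8 were not called. A call needed a Benjamini-Hochberg adjusted p under 0.05 in limma and a fold change of at least 1.2. Over all genes, 12.8% were called higher and 17.0% lower. The median log2 effect of the 33 was 0.52 against -0.08 over all genes, of which 65.2% were below 0. At least 2-fold rises were seen in 8 genes and at least 1.5-fold rises in 15. Every injured array lay above every sham array for 21 of the 33, and the reverse held for 0. Over all genes those shares were 8.86% and 10.7%. The 21 were all called except Pold1.

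In bulk tissue, more dividing cells and more RNA per cell cannot be told apart. Markers of macrophages and microglia moved with these genes: 13 of 13 were higher after injury, with a median log2 effect of 2.08, and their mean level went from 6.29 to 6.53 over the sham arrays to between 8.32 and 8.86 over the injured arrays. Their part in the result was not tested.

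**Figure D1:**
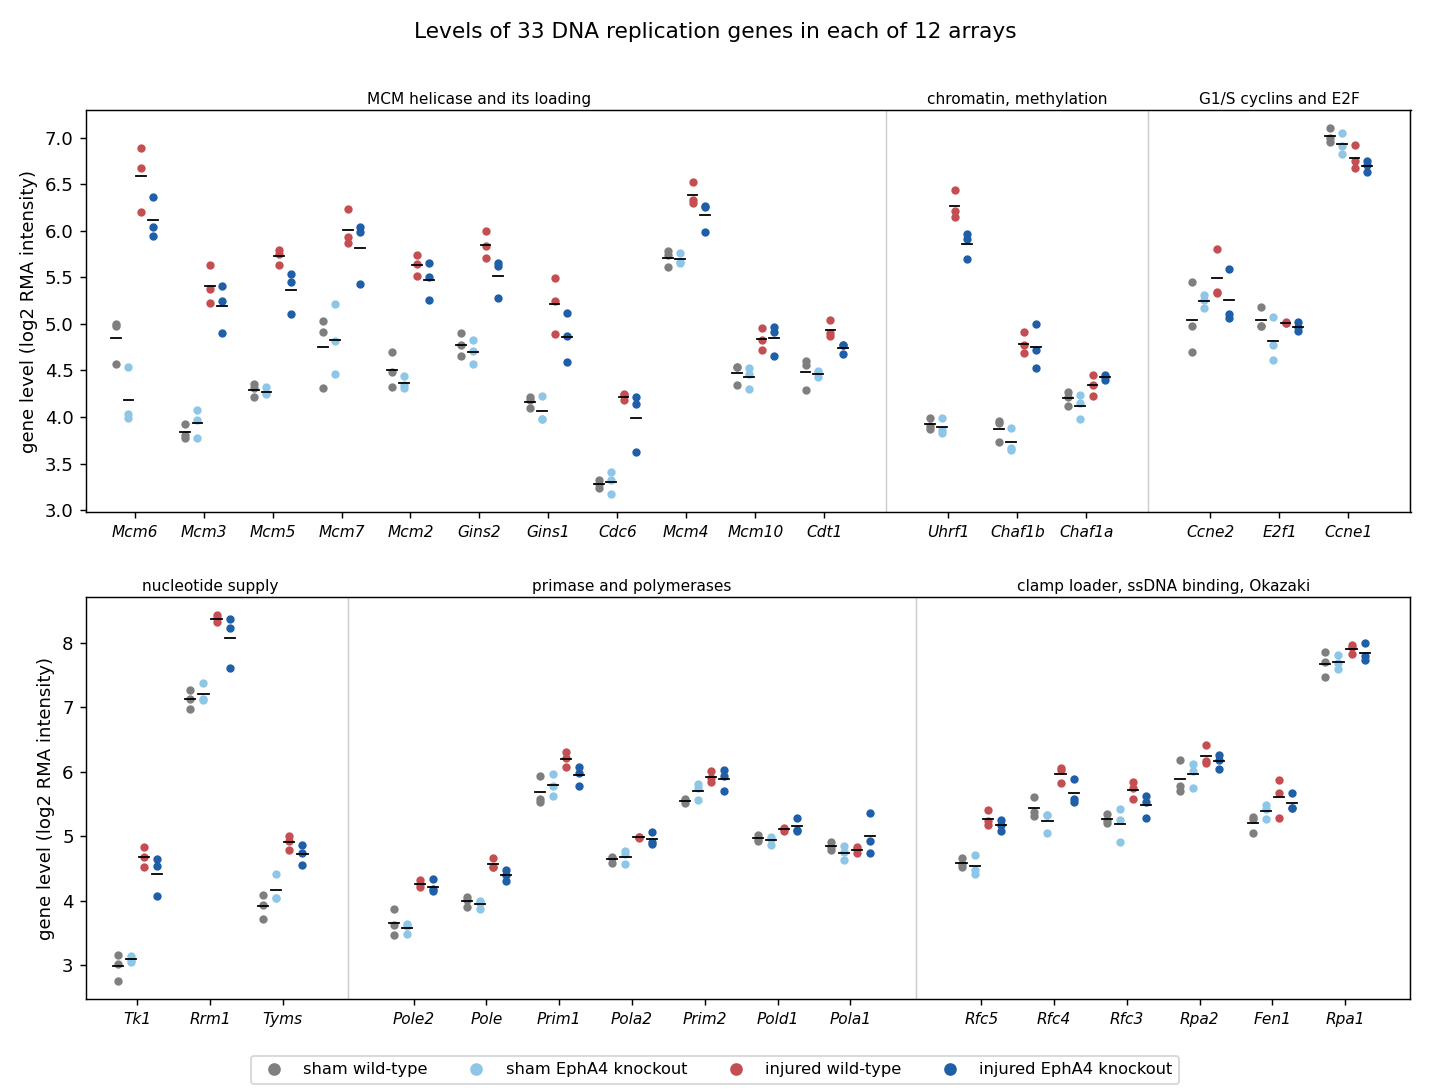
Log2 level (vertical axis) of each of the 33 DNA replication genes (horizontal axis, ordered by role), with 1 point per array, coloured by the 4 groups of genotype and treatment, and a bar at each group's mean of 3 arrays. The injured points stand clear of the sham points for Mcm6, Uhrf1 and Tk1, and mix with them for Pola1, E2f1, Ccne2 and Rpa1.

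Among the MCM helicase and its loading factors, all 11 were called higher in the mean injury effect, with a median log2 effect of 0.94, and in wild-type mice all 11 were called as well. In EphA4 knockout mice 10 of 11 were called, Cdt1 being the exception. Mcm6, a subunit of the hexameric helicase, rose most. Its log2 level was 4.57, 4.98 and 5.0 in the sham wild-type arrays and 4.03, 4.53 and 3.99 in the sham EphA4 knockout arrays. After injury it was 6.20, 6.68 and 6.89 in wild-type and 5.95, 6.04 and 6.36 in EphA4 knockout arrays. All 6 injured arrays were above all 6 sham arrays, and within both treatments the knockout arrays tended to the lower end. The mean injury effect on Mcm6 was 1.84 on the log2 scale, or 3.57-fold, with a standard error of 0.14 and a limma adjusted p of 4.45e-07.

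Cdt1, which loads the helicase and is kept in check by geminin, rose least within this group. It read 4.60, 4.29 and 4.56 in sham wild-type, 4.43, 4.48 and 4.49 in sham EphA4 knockout, 4.90, 4.87 and 5.04 in injured wild-type and 4.77, 4.67 and 4.77 in injured EphA4 knockout arrays. The injured arrays stayed above the sham arrays, by a narrow margin. The mean injury effect was 0.36 (1.29-fold, standard error 0.07, limma adjusted p 0.0015). Between these ends lay Mcm3 (log2 effect 1.41), Mcm5 (1.26), Mcm7 (1.12), Mcm2 (1.12) and Mcm4 (0.58), which complete the ring, the GINS subunits Gins2 (0.94) and Gins1 (0.92), the loader Cdc6 (0.81) and Mcm10 (0.39), which takes part in helicase activation. Mcm4, whose ring partners at least doubled, thus had the smallest effect among the 6 subunits of the ring.

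The enzymes of nucleotide supply rose in both genotypes, 3 of 3 in each. Tk1, the cytosolic thymidine kinase of the salvage route, rose most, although its promoter stretch above holds no E2F match. It read 3.03, 3.16 and 2.76 in sham wild-type, 3.08, 3.05 and 3.15 in sham EphA4 knockout, 4.84, 4.53 and 4.69 in injured wild-type and 4.08, 4.64 and 4.54 in injured EphA4 knockout arrays. The groups of treatment were far apart, and the lowest injured value was that of the first EphA4 knockout array. The effect was 1.52 on the log2 scale (2.86-fold, standard error 0.11, limma adjusted p 2.04e-07). Only 2 probesets read this gene, with effects of 0.28 and 2.75.

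Tyms, thymidylate synthase, had the smallest effect of these enzymes by the mean over all probesets. Its levels were 3.94, 4.09 and 3.72 in sham wild-type, 4.41, 4.04 and 4.04 in sham EphA4 knockout, 4.93, 4.79 and 5.0 in injured wild-type and 4.86, 4.56 and 4.74 in injured EphA4 knockout arrays. Injured arrays were all above sham arrays, and the gap between the first sham EphA4 knockout array and the second injured EphA4 knockout array was small. The effect was 0.77 (1.71-fold, standard error 0.10, limma adjusted p 3.74e-05). Over the alternative settings it ranged from 0.49 to 2.39, against 0.96 to 1.18 for Rrm1. The 2.39 was the effect of a single probeset, left when probesets under a mean log2 level of 5 were dropped. That mean includes the injured arrays, where this probeset stood at 6.95 against 4.56 in sham arrays. The value therefore does not bear on the order of these enzymes, which is given for the mean over all probesets only. Rrm1, the large subunit of ribonucleotide reductase, rose by 1.06 on the log2 scale (2.08-fold), and all 20 of its probesets were above 0, at 0.71 to 1.34.

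Primase and polymerase subunits moved less, with 5 of 7 called higher and a median log2 effect of 0.30. Pole2, the second subunit of polymerase epsilon, had the largest effect. It read 3.62, 3.48 and 3.88 in sham wild-type, 3.48, 3.62 and 3.65 in sham EphA4 knockout, 4.22, 4.26 and 4.33 in injured wild-type and 4.34, 4.18 and 4.15 in injured EphA4 knockout arrays. No injured array fell within the sham range, and the genotypes overlapped on both sides. The effect was 0.62 (1.54-fold, standard error 0.08, limma adjusted p 4.95e-05). Pole, the catalytic subunit of the same enzyme, had an effect of 0.52, the primase subunits Prim1 and Prim2 had effects of 0.34 and 0.27, and Pola2, the regulatory subunit of polymerase alpha, had an effect of 0.30.

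The catalytic subunits of polymerases alpha and delta were not called. Pola1 read 4.84, 4.80 and 4.91 in sham wild-type, 4.86, 4.64 and 4.75 in sham EphA4 knockout, 4.83, 4.80 and 4.75 in injured wild-type and 4.75, 4.92 and 5.36 in injured EphA4 knockout arrays. All 3 injured wild-type arrays and the first injured EphA4 knockout array lay within the sham range, and the second and the third injured EphA4 knockout arrays lay above it, the second by a narrow margin. The effect was 0.10 (1.08-fold, standard error 0.10, limma adjusted p 0.445), and its 37 probesets ranged from -0.84 to 0.80. Pold1 read 5.02, 4.93 and 4.96 in sham wild-type, 4.95, 4.99 and 4.87 in sham EphA4 knockout, 5.13, 5.11 and 5.08 in injured wild-type and 5.11, 5.29 and 5.08 in injured EphA4 knockout arrays. All 6 injured arrays were above all 6 sham arrays, with an adjusted p of 0.0459 in limma, and Pold1 missed the call because the 1.13-fold difference was under 1.2. Both promoters hold an E2F match, as does that of Chaf1a, so 3 of the 7 uncalled genes with a window had a match, against 13 of the 20 called.

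Of the clamp loader, the single-strand binding proteins and the flap nuclease, 4 of the 6 genes measured were called higher. Rfc5, a small subunit of the clamp loader RFC, led with levels of 4.52, 4.67 and 4.56 in sham wild-type, 4.71, 4.42 and 4.47 in sham EphA4 knockout, 5.24, 5.17 and 5.41 in injured wild-type and 5.26, 5.09 and 5.18 in injured EphA4 knockout arrays. The injured and sham arrays did not overlap. The effect was 0.66 (1.59-fold, standard error 0.08, limma adjusted p 2.06e-05), and it was 0.48 for Rfc4 and 0.37 for Rfc3, further subunits of the same loader. Only 2 probesets read Rfc5, with effects of 0.34 and 0.99. Rpa2, the middle subunit of replication protein A, was called at 0.28 with a limma adjusted p of 0.0499, and lost the call in 16 of 24 alternative settings.

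Rpa1, the large subunit of replication protein A, was not called. It read 7.47, 7.86 and 7.70 in sham wild-type, 7.69, 7.81 and 7.60 in sham EphA4 knockout, 7.83, 7.93 and 7.97 in injured wild-type and 7.80, 7.74 and 8.0 in injured EphA4 knockout arrays, with an effect of 0.19 (standard error 0.08, limma adjusted p 0.103). Fen1, which trims the flaps of Okazaki fragments, read 5.26, 5.30 and 5.05 in sham wild-type, 5.48, 5.28 and 5.42 in sham EphA4 knockout, 5.88, 5.28 and 5.67 in injured wild-type and 5.44, 5.44 and 5.67 in injured EphA4 knockout arrays. Sham and injured arrays overlapped in both genes, and the Fen1 effect was 0.27 (standard error 0.10, limma adjusted p 0.0583).

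The greatest rise of all 33 genes was that of Uhrf1, which binds hemimethylated DNA behind the fork and recruits the maintenance methyltransferase DNMT1. It read 3.87, 3.90 and 3.99 in sham wild-type, 3.99, 3.83 and 3.86 in sham EphA4 knockout, 6.44, 6.21 and 6.15 in injured wild-type and 5.96, 5.70 and 5.91 in injured EphA4 knockout arrays. The sham groups overlapped, the injured groups were far above them, and every injured knockout array lay under every injured wild-type array. The mean injury effect was 2.15 (4.45-fold, standard error 0.08, limma adjusted p 5.35e-10), from 5.08-fold in wild-type and 3.89-fold in EphA4 knockout mice. Its 5 probesets had effects of 0.53 to 3.02.

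The subunits of chromatin assembly factor CAF-1, which deposits histones on new DNA, differed in size of effect. Chaf1b rose by 0.97 on the log2 scale (1.95-fold). Chaf1a read 4.27, 4.21 and 4.12 in sham wild-type, 3.97, 4.15 and 4.24 in sham EphA4 knockout, 4.45, 4.34 and 4.23 in injured wild-type and 4.40, 4.45 and 4.43 in injured EphA4 knockout arrays. Its mean effect of 0.22 (standard error 0.07, limma adjusted p 0.0245) was 1.17-fold and missed the call on size.

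None of the 3 genes that govern the G1/S step was called. Ccne1, cyclin E1, was the only gene of the 33 with a mean injury effect below 0. It read 6.96, 7.10 and 7.0 in sham wild-type, 6.91, 7.06 and 6.83 in sham EphA4 knockout, 6.92, 6.75 and 6.67 in injured wild-type and 6.76, 6.71 and 6.63 in injured EphA4 knockout arrays. The injured arrays lay to the lower side with some overlap, the effect was -0.24 (standard error 0.07, limma adjusted p 0.0203), and only 1 of its 12 probesets was above 0. Without the first injured wild-type array the fold passed the limit and Ccne1 was called lower.

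Ccne2, cyclin E2, read 4.97, 4.70 and 5.45 in sham wild-type, 5.26, 5.17 and 5.31 in sham EphA4 knockout, 5.8, 5.35 and 5.33 in injured wild-type and 5.60, 5.06 and 5.11 in injured EphA4 knockout arrays, and its effect was 0.23 (standard error 0.14, limma adjusted p 0.228). E2f1, the activating E2F factor, read 4.98, 5.18 and 4.98 in sham wild-type, 4.77, 4.62 and 5.08 in sham EphA4 knockout, 5.01, 5.01 and 5.03 in injured wild-type and 4.96, 5.02 and 4.92 in injured EphA4 knockout arrays. Sham and injured arrays overlapped widely in both genes. For E2f1 the effect was 0.06 (standard error 0.08, limma adjusted p 0.643).

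Probesets were also counted singly. Of the 483 probesets of these genes, 108 (22.4%) had all 6 injured arrays above all 6 sham arrays and 0 had the reverse, against 4.68% and 3.11% of the 194262 probesets of the table. Some gene means rested on few of their probesets. The 9 probesets of Cdc6 ranged from -0.05 to 2.99 with a median of 0.27, and the 6 of Tyms from 0.07 to 2.39. The highest effect in any alternative setting was 2.99 for Cdc6, 2.51 for Mcm3, 2.56 for Uhrf1 and 2.17 for Mcm6. For Cdc6 and Mcm3 this was the effect of a single probeset, left when probesets under a mean log2 level of 5 were dropped. That mean includes the injured arrays, so the filter favours probesets that rose, and these values are no support for a larger rise. The rankings of genes by size of rise therefore hold for the mean over all probesets.

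Next, the injury response was taken within each genotype. In wild-type mice 24 of the 33 genes were called higher and 0 lower (all genes, 11.2% higher and 12.9% lower), with a median log2 effect of 0.58. In EphA4 knockout mice 20 were called higher and 0 lower (all genes, 8.98% and 11.5%), with a median of 0.45. Without the second sham EphA4 knockout array, 16 genes were called higher in EphA4 knockout mice, with a median of 0.47, and 25 were called higher in the mean injury effect, with a median of 0.51. The calls were shared by 19 genes. Pola2, Prim1, Prim2, Rfc3 and Cdt1 were called in wild-type mice alone and Chaf1a in EphA4 knockout mice alone, which does not show that the genotypes differ for them. The log2 effects in wild-type and in EphA4 knockout mice were 0.34 and 0.27 for Pola2, 0.51 and 0.16 for Prim1, and 0.14 and 0.31 for Chaf1a.

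The difference between the genotypes' injury effects was itself tested. At the threshold of the study for genotype comparisons, an unadjusted p under 0.01 in limma with a fold change of at least 1.2, 0 of the 33 genes were called in either direction (all genes, 0.512% larger and 0.543% smaller in EphA4 knockout mice). At an unadjusted limma p under 0.05 there were 2, Uhrf1 with a difference of -0.39 (standard error 0.15, p 0.0257) and Tyms with -0.44 (p 0.0394), and the smallest adjusted p of the 33 was 0.873. The effect was smaller in EphA4 knockout mice for 24 genes and larger for 9, whereas 48.9% of all genes had a difference below 0. The median difference was -0.17 against 0.01 over all genes. Without the second sham EphA4 knockout array that median was -0.11 and 0 genes were called.

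**Figure D2:**
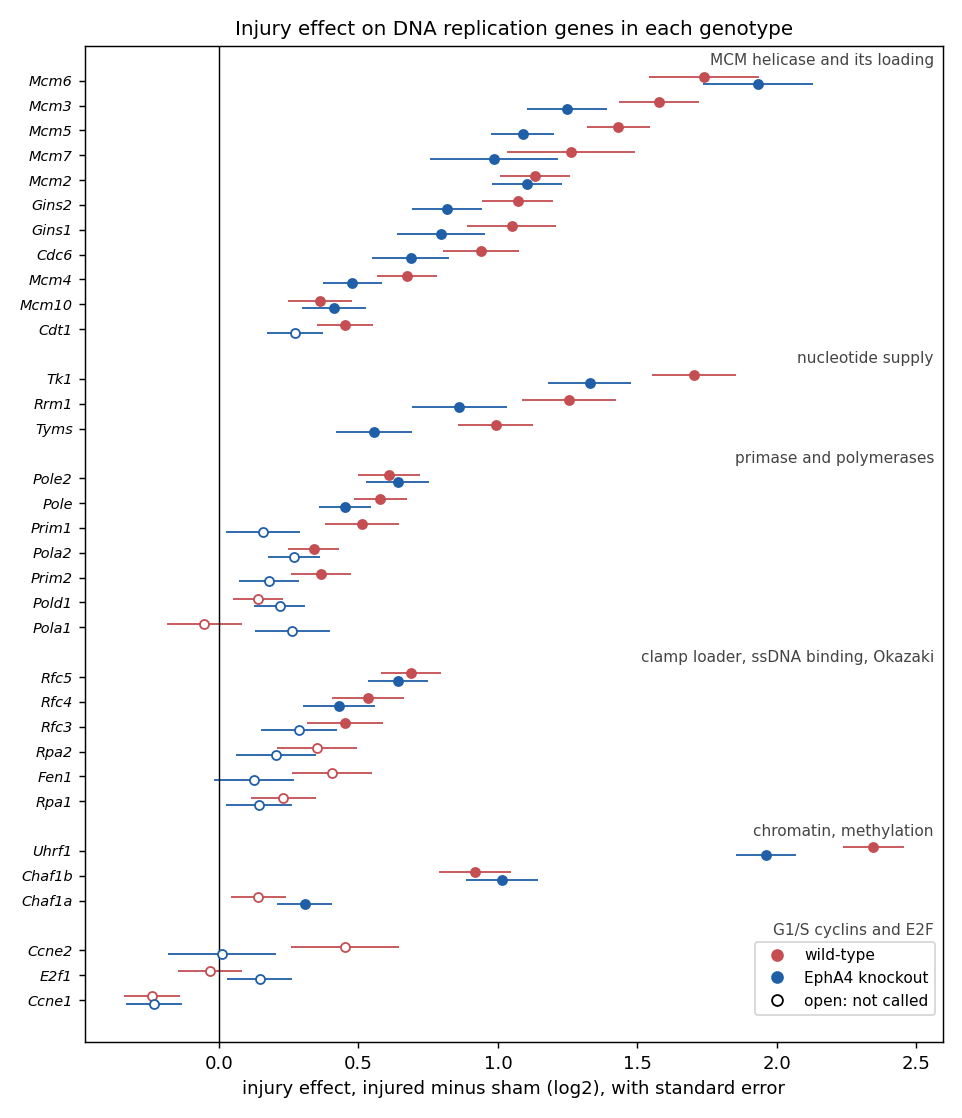
Log2 injury effect (horizontal axis, injured minus sham) of each of the 33 genes (rows, by role) in wild-type and EphA4 knockout mice, with standard errors from limma and open points where an effect was not called. Uhrf1 has the largest effect in both genotypes and Ccne1 lies below 0 in both. The smaller effect is that in EphA4 knockout mice for 24 of the 33 genes, against 48.9% of all genes.

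In sham-operated cords, where the comparison asks which genes differ without injury, Mcm6 alone was called, as lower in EphA4 knockout mice, and 0 genes were called higher (all genes, 0.973% lower and 0.373% higher). The difference was -0.66 on the log2 scale, or a ratio of 0.631, with a standard error of 0.17, an unadjusted limma p of 0.00382 and an adjusted p of 0.605. From the values given above, all 3 knockout arrays were below all 3 wild-type arrays, the nearest being 4.53 in knockout and 4.57 in wild-type. Without the second sham EphA4 knockout array, whose sex label is in doubt, the difference was -0.84 (limma p 0.000623). It was not called without the first or the third sham EphA4 knockout array or without the second or the third wild-type array, with differences of -0.60 to -0.57 (limma p 0.0159 to 0.0169). Within extraction batch 1 it was -0.04 and within batch 2 it was -1.0. Each value rested on a single knockout array, which in batch 1 was the array whose sex label is in doubt.

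The lower Mcm6 level was spread over its probesets. These probesets make up the gene mean that was called and were read on the same arrays, so they are no separate support. With the median over probesets as the gene level, the sham difference was -0.41 (limma p 0.0662) and Mcm6 was not called. Of 20 probesets, 18 were lower in sham EphA4 knockout than in sham wild-type arrays, from -1.70 to 0.17 with a median of -0.71, and 6 had all knockout arrays below all wild-type arrays. Over the 483 probesets of the list that share was 7.25%, and over the whole table it was 5.58%. After injury 18 of 20 were lower in knockout arrays and 6 were separated, against 8.28% of the probesets of the list and 4.38% of the table. In the mean injury effect all 20 were above 0, at 0.12 to 2.88. Mcm6 lies on chromosome 1, as does Epha4. Mcm3 and Prim2 lie on that chromosome too, with sham genotype differences of 0.11 and 0.15, and neither was called. Positions along the chromosome were not compared, and the part of the shared chromosome was not tested. The other 32 genes had sham differences on both sides of 0, and the median of the 33 was -0.02, or -0.01 without the second sham EphA4 knockout array.

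**Figure D3:**
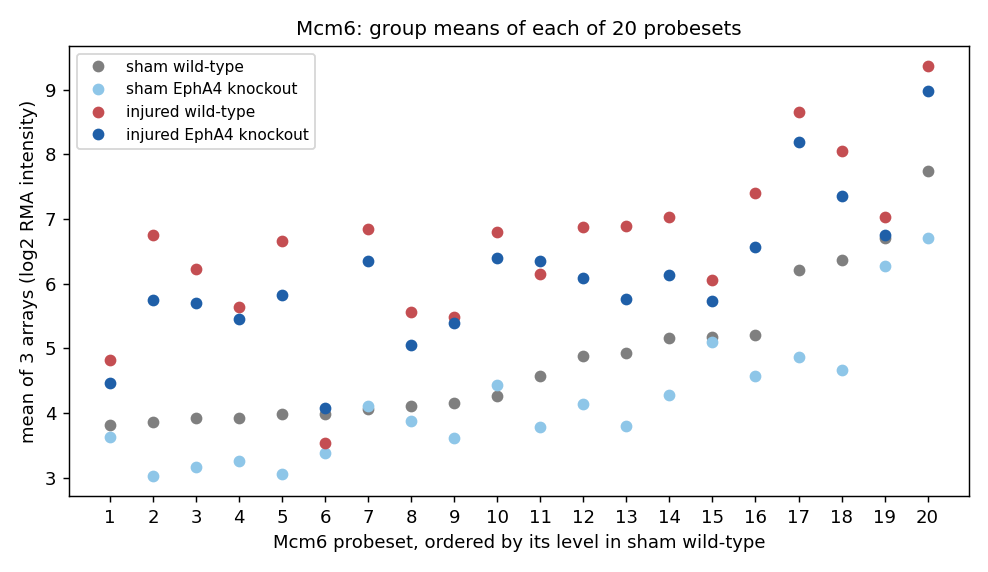
Mean log2 signal over 3 arrays (vertical axis) of each of the 20 Mcm6 probesets (horizontal axis, ordered by the sham wild-type mean), with 1 point per group. For 18 of 20 the sham EphA4 knockout mean lies below the sham wild-type mean, and apart from a single probeset both injured means lie above both sham means.

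In injured cords 0 of the 33 genes were called in either direction between the genotypes (all genes, 0.663% lower and 0.133% higher in EphA4 knockout mice), and the smallest adjusted p of the 33 was 0.998. Of the 33, 29 were below 0, with a median of -0.19, against 48.9% of all genes below 0. The number called lower was not stable, and was 1 to 3 in 7 alternative settings, such as 1 without the first injured wild-type array and 3 with array weights. At an unadjusted limma p under 0.05 there were 4, all lower in EphA4 knockout cords: Uhrf1 (-0.41, standard error 0.13, p 0.0113), Mcm5 (-0.36, p 0.0274), Mcm6 (-0.47, p 0.0334) and Gins2 (-0.33, p 0.0437). All 3 injured wild-type arrays were above all 3 injured knockout arrays for Mcm4, Mcm5, Pole, Gins2, Cdt1 and Uhrf1 (5.51% of all genes), and the reverse held for 0 (3.11% of all genes).

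Mcm5, singled out after its values were seen, read 5.75, 5.79 and 5.64 in injured wild-type and 5.45, 5.11 and 5.54 in injured EphA4 knockout arrays, against 4.35, 4.22 and 4.31 and 4.25, 4.25 and 4.32 in the sham groups. The sham groups overlapped and the injured groups did not. Within batches the injured genotype difference was -0.61 and -0.30 for Mcm5, -0.48 and -0.47 for Uhrf1, -0.74 and -0.26 for Mcm6, and -0.29 and -0.06 for Gins2, in batches 1 and 2. Each of these batches held a single injured knockout array, so each value rested on an individual knockout mouse. Batch 2 also held a single injured wild-type array, so its values rest on an individual mouse on each side. These genes were picked by an unadjusted limma p under 0.05 on the same arrays, so like signs within batches are no separate support.

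The second injured EphA4 knockout array was the lowest of the 6 injured arrays for 20 of the 33 genes, against 21.7% of all genes, and its values had the narrowest spread, with an interquartile range of 3.28 against 3.47 to 3.61 in the other injured arrays. Without it the median genotype difference of the 33 went from -0.19 to -0.07, and the median difference of injury effects from -0.17 to -0.08. Without the first injured wild-type array the former was -0.12. Skeletal muscle markers stood at a mean level of 6.02 in that wild-type array and at 4.15 to 4.60 in the other 11 arrays, and their part was not tested. The median genotype difference in injured cords was -0.28 within batch 1, where the second knockout array was the only injured knockout array. It was -0.07 within batch 2, where the first was the only injured knockout array. The only injured wild-type array of batch 2 was the first, whose muscle markers stood at 6.02, and that array was not in batch 1. Both the wild-type and the knockout arrays thus differed between these batches, and their parts in these medians were not tested.

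The mean level of the 33 genes was 4.78 to 4.86 over the sham arrays, 5.59, 5.53 and 5.61 in injured wild-type and 5.47, 5.31 and 5.47 in injured EphA4 knockout arrays. Macrophage and microglia markers were likewise lower in every injured knockout than in every injured wild-type array. They stood at 8.76, 8.65 and 8.86 in wild-type and 8.59, 8.53 and 8.32 in knockout arrays, with 13 of 13 differences below 0 and 0 called. Their part in the genotype difference was not tested. In contrast to the replication genes, the lowest macrophage level was that of the third knockout array.

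**Figure D4:**
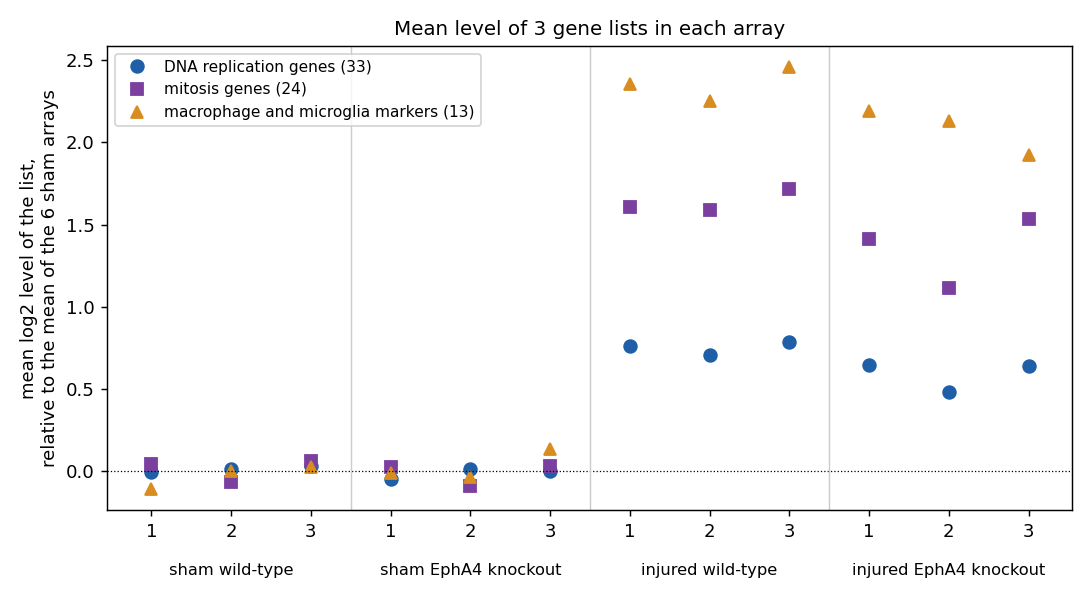
Mean log2 level of the 33 DNA replication genes, of 24 mitosis genes and of 13 macrophage and microglia markers in each array, relative to each list's mean over the 6 sham arrays, with arrays grouped by genotype and treatment. All 6 injured arrays lie above the sham arrays for each list, and the second injured EphA4 knockout array is the lowest injured array for the replication and mitosis genes.

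Neighbouring cell cycle lists placed the 33 genes in context. Among 39 other replication genes measured of 41 listed, 14 were called higher in the mean injury effect and 0 lower, with a median of 0.08, against 12.8% of all genes called higher. They were led by Asf1b (1.87), a histone chaperone, Dbf4 (1.32), which activates the kinase CDC7 at origins, and Dna2 (0.74), a nuclease and helicase. Of 25 genes of the RB, E2F and G1 step measured of 27, 12 were higher and 3 lower, with a median of 0.30. Over all genes, 12.8% were called higher and 17.0% lower. Those called higher were led by Ccna2 (2.64), cyclin A2, Cdkn2c (2.28), an inhibitor of CDK4 and CDK6, and Ccnd1 (1.67), cyclin D1. Those called lower were Tfdp2 (-0.37), a dimer partner of E2F, E2f6 (-0.31), a repressor, and Cdkn1c (-0.31), an inhibitor of cyclin-dependent kinases. Without the second injured EphA4 knockout array the number called lower went from 3 to 1. While E2f1 was not called, E2f8, an E2F target that represses, rose by 0.59.

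Of these cell cycle lists, the mitosis genes had the largest median, with 23 of 24 measured of 26 called higher. Their median log2 effect was 1.40, and they were led by Top2a (3.10), which untangles chromosomes, Prc1 (2.51), which bundles the spindle midzone, and Mki67 (2.28), the proliferation antigen Ki-67. In injured cords 2 of the 24, Ccnb2 (-0.71, limma p 0.00159) and Mki67 (-0.70, limma p 0.00282), were called lower in EphA4 knockout mice. The share called lower over all genes was 0.663%, and the smallest adjusted limma p of the 24 was 0.998. Among the injured arrays, the mean level of the mitosis genes was lowest in the second EphA4 knockout array. The part of that array in these calls was not tested.

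**Figure D5:**
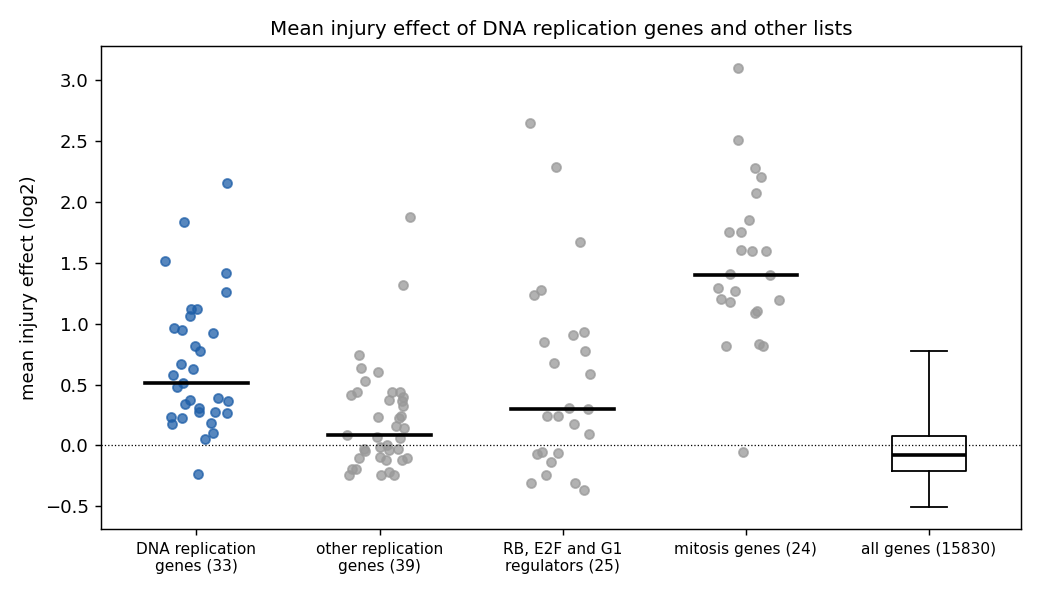
Mean log2 injury effect of the genes of each list, 1 point per gene, beside a box for all 15830 genes whose line is the median, whose box spans the middle 50% and whose whiskers end at the 5th and 95th percentiles. The 33 DNA replication genes have a median of 0.52, the mitosis genes 1.40 and all genes -0.08, and the 39 other replication genes have a median of 0.08, level with the upper edge of the box (0.08).

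By cell type, markers of pericytes, fibroblasts and meninges were called higher for 5 of 8 genes in the mean injury effect, with a median of 1.30, those of astrocytes for 4 of 7 with 1 lower, of endothelium for 3 of 6, of oligodendrocyte precursors for 2 of 6, of ependymal cells for 2 of 4 and of oligodendrocytes for 1 of 6. Neuronal markers were lower for 5 of 10. Over all genes, 12.8% were called higher and 17.0% lower. Markers of T and B cells (6 genes), neutrophils (5), skeletal muscle (7) and erythroid cells (1) had 0 calls. The lists are not exclusive, as Cspg4 was counted both with the pericyte markers and with the oligodendrocyte precursor markers. Which of these cells carried the replication genes was not tested.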

How the data were processed

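The arrays were Affymetrix Mouse Exon 1.0 ST arrays, 1 per mouse, and the analysis began from the values the authors deposited, which are log2 signals per probeset after RMA background correction and quantile normalization in Partek, with build mm9 named in the submitters' processing notes. Which arrays were normalized together is not given in the sources used here. The values ran from 2.07 to 14.6, with array medians of 5.79 to 5.85. Of 194262 probesets, 179614 named 1 gene and were averaged into 15830 genes (median of 9 probesets), 1331 named several and 13317 named none. Symbols were matched to RefSeq, 13745 as they stood, 2021 by synonym and 64 kept as they were.

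Gene levels were fitted with limma 3.58.1 in R 4.3.3 (lmFit and eBayes). Injury effects came from 1 fit of the 12 arrays in 4 groups and were called where the Benjamini-Hochberg adjusted p was under 0.05. Genotype differences came from fits of 6 arrays per treatment and, like the difference of injury effects, were called at an unadjusted p under 0.01, the study's threshold. Each call also needed a fold change of at least 1.2. P-values measure the spread between mice of 1 experiment. Replicate numbers do not mark shared litters or days in the labels. Over the 12 same-numbered pairs of samples, deviations from the group means correlated at -0.30 to 0.22, and all were over 0.1 only between sham and injured wild-type mice. The number was used as a block in an alternative of each comparison, and for the wild-type injury effect also on wild-type arrays only, a setting added after seeing the data.

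Values in every array are given for the genes with the largest and smallest mean injury effect of each role, for genes called in a genotype comparison and for genes not called after injury, and of other lists for the 3 with the greatest effect and those called against their list. The members were listed by name and not by a measured value, but they, the other lists and the tests were chosen with earlier results of these data known. Alternatives changed the probeset summary, the filters on dim probesets and genes, the scaling, the covariates, the weights, the test and the threshold, or left out 1 array, and the fits were tested on simulated data. Python 3.11.15 and matplotlib 3.10.9 were used for descriptions and figures.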

Additional observations from a re-analysis of the deposited data

How the results depend on the processing

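With 3 arrays per group and no measure of background per probeset, low signals limit the smaller effects. The number of replication genes called higher in the mean injury effect ranged from 21 to 25 over all alternatives, in wild-type mice from 18 to 26 and in EphA4 knockout mice from 16 to 21. Of the 25 genes called, 18 kept the call in every alternative run and 7 lost it in at least 1, Rpa2 most often. Leaving out probesets under a mean log2 level of 5 gave 1 lower call in wild-type mice, 1 lower call in the mean injury effect, 2 lower calls in the difference of injury effects, 1 higher and 2 lower calls in sham and 2 lower calls in injured cords, and it turned the wild-type effect on Gins1 from 1.05 to -0.0359. Array weights gave 1 lower call in wild-type mice and 3 lower calls in injured cords. The 1 lower call in sham cords became 0 with the median over probesets, with batch as a fixed term on 10 arrays, with the same 10 arrays and no batch term (added after seeing the data), with an ordinary analysis of variance and at an adjusted p under 0.05. Lower calls in injured cords went from 0 to 1 with genes under the 25th percentile left out, with the replicate block and with batch as a fixed term, and to 2 with all 12 arrays in 1 fit. Leaving out 1 array at a time, the lower calls ranged from 0 to 1 in the mean injury effect (1 without the first injured wild-type array), from 0 to 1 in sham cords and from 0 to 1 in injured cords (1 without the first injured wild-type array), and the lower calls among the RB, E2F and G1 genes from 1 to 3. With the replicate block the higher calls were 22 in wild-type mice, 24 with wild-type arrays only, 19 in EphA4 knockout mice and 24 in the mean injury effect. Causes were not tested.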

Other observations

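Within extraction batches the median mean injury effect over the 33 replication genes was 0.45 in batch 1, with 32 genes above 0, and 0.54 in batch 2, with 30 above 0. The median difference of injury effects was -0.39 in batch 1, with 26 genes below 0, and -0.11 in batch 2, with 22 below 0. In sham cords the medians were -0.01 and 0.04. The difference of injury effects on Mcm6 had opposite signs in the batches, -0.70 in batch 1 and 0.74 in batch 2, whereas that on Uhrf1 was -0.44 and -0.39. Each batch held a single sham and a single injured knockout array, so all these values rest on individual mice. Shares over all genes within a batch are not given, so these counts stand without a background.

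Among the injured arrays the third wild-type array was the highest for 13 of the 33 genes and the first for 11, against 15% and 11% of all genes. Markers of pericytes, fibroblasts and meninges varied within groups, with the highest mean level, 8.29, in the first injured EphA4 knockout array and 6.88 in the first sham EphA4 knockout array.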
